A study of Mus musculus with 12 samples.

Results

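Interferons are secreted proteins that warn neighbouring cells of a virus. Type I interferons bind the receptor chains Ifnar1 and Ifnar2, and the signal ends in a nuclear complex, with Stat2 and Irf9 among its subunits, that binds the interferon-stimulated response element (ISRE), whereas interferon gamma acts at the gamma-activated site (GAS). Among the genes switched on are antiviral effectors, which block viral RNA, protein synthesis or entry, and the genes that cut proteins into peptides and show them on MHC class I molecules. Fibroblasts are a classical cell type in which this programme has been studied, and viral RNA, including that of vectors, can set it off.

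A set of 41 interferon-stimulated and antigen presentation genes was followed here in mouse embryonic fibroblasts (MEFs) carrying cardiac transcription factors. The genes were chosen by name: 2 receptors, 5 RNA sensors and their partners, 5 transcription factors, 17 antiviral effectors, 5 immunoproteasome genes, 3 peptide loading genes and 4 MHC class I genes. Each was read from a probe set (the group of short probes that reports 1 transcript on the array), and where a gene had several, the one with the highest mean log2 signal over the 12 arrays stood for it. With this rule 37 of the 41 genes were counted, out of 12393 genes in the series. Isg15, Psme2 and H2-T23 had probe sets only together with the symbols of a second gene, Ddx58 had none in the annotation used here, and these 4 were left out of all counts.

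The MEFs were of strain C57BL/6, and all 4 groups were transduced with a lentiviral M2rtTA, which switches on the other vectors once doxycycline is added. TF group 3 received 7 factors (GATA4, TBX5, MEF2C, Mesp1, SMARCD3, MYOCD and SRF), TF group 2 received 5 (GATA4, TBX5, MEF2C, Mesp1 and SMARCD3) and TF group 1 received 3 (GATA4, TBX5 and MEF2C). The negative control received M2rtTA alone, so the number of viruses differed between groups together with the factors, and the 2 cannot be told apart. Doxycycline was given to each group for 7 days, and the study's methods add valproic acid and serum for all cultures. The cDNAs were human except Mesp1. Each group had 3 arrays (n = 3 throughout), which the labels call biological replicates without saying whether they came from separate animals. RNA came from whole, unsorted cultures, in which fewer cells of a kind and less RNA per cell cannot be told apart.

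The deposited values were linear signals whose mean, without the lowest and highest 2%, was 500.2 on every array. Median signals lay between 131.4 and 149.3, and signals under 32, taken here as the floor, made up 20.4% to 24.2% per array. Replicate arrays correlated at 0.9601 to 0.9656. All 10 fibroblast markers lay above the floor in every group. Their summed signal was 64250 to 65970 in TF group 3, 64230 to 66850 in TF group 2, 78180 to 84420 in TF group 1 and 70610 to 74370 in the negative control. By the rule for calls given below, Pdgfra, Pdgfrb and S100a4 were lower than the control in TF groups 3 and 2. S100a4 was also lower in TF group 1, and Dcn was higher in TF groups 2 and 1. The summed signal of 10 macrophage markers was 698.5 to 799.9 in TF group 3, 688.7 to 751.7 in TF group 2, 671 to 683.7 in TF group 1 and 670.7 to 781.7 in the negative control, with Tyrobp, an adaptor of myeloid receptors, below the floor in all 4 groups. Poly-A spikes, RNAs added in a fixed amount, read 0.81 higher on the log2 scale on the 9 TF arrays than on the control arrays. The control arrays disagreed, with spike means of 7.786, 6.995 and 7.257, against 8.028 to 8.284 on the TF arrays. The shift under spike scaling therefore rests on 3 control arrays that lie far apart. Scaling the arrays to these spikes lowered every change against the negative control by 0.793 in TF group 3, 0.738 in TF group 2 and 0.899 in TF group 1, and put the median change of all genes at -0.74, -0.68 and -0.83. Directions below are for the signals as deposited, in which the median gene changed by 0.05, 0.06 and 0.07, and any rise against the control that is smaller than its group's shift turns under spike scaling. This held for 19 of the 26 members above the control in TF group 3, 17 of 27 in TF group 2 and 22 of 31 in TF group 1, and the turns of called members are given with them.

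Promoters of the genes on which the results turn are shown first, as 250 bases before and 50 after the start of transcription (RefSeq, build GRCm38.p6), printed 5′ to 3′ on the gene's strand with matches in capitals. Ifit1 and Ifit3 are shown because they were called higher in each TF group, Gbp2 because it fell, and Ifitm1 and Ifitm3 because these neighbours on chromosome 7 gave different readings. Tap1 is shown because its start lies head to head with that of Psmb9, whose promoter (chr17:34187281-34187580, minus strand) overlaps the stretch printed.
Ifit1 (chr19:34640639-34640938, plus strand): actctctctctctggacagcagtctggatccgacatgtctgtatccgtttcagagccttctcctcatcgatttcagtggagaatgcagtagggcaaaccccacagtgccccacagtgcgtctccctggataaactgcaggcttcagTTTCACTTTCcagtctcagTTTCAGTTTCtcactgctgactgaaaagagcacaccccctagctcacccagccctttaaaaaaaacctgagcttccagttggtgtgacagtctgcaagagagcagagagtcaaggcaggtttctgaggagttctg
Ifit3 (chr19:34583279-34583578, plus strand): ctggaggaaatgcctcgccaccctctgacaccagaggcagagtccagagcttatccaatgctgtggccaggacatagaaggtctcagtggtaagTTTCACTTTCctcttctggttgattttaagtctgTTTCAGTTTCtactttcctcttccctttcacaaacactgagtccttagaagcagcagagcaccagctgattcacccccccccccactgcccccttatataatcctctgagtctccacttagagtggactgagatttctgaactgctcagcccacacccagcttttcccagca
Gbp2 (chr3:142620413-142620712, plus strand): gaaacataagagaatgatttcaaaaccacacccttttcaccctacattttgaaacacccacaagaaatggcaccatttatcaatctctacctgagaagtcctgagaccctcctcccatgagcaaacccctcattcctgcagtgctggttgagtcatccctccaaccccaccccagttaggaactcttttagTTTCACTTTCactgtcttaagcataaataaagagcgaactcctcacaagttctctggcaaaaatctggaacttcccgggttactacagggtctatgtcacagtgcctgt
Ifitm1 (chr7:140967826-140968125, plus strand): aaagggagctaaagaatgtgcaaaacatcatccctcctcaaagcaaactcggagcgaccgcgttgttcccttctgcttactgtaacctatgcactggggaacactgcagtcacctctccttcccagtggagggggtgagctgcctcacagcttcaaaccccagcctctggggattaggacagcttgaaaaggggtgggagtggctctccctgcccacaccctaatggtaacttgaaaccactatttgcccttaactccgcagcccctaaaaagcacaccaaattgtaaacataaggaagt
Ifitm3 (chr7:141010695-141010994, minus strand): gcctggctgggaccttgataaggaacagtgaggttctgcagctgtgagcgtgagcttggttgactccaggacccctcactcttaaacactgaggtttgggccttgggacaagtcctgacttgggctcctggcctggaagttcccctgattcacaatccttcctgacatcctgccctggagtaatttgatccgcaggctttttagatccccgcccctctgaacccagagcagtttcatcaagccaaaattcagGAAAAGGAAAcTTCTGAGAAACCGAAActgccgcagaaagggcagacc
Tap1 (chr17:34187306-34187605, plus strand): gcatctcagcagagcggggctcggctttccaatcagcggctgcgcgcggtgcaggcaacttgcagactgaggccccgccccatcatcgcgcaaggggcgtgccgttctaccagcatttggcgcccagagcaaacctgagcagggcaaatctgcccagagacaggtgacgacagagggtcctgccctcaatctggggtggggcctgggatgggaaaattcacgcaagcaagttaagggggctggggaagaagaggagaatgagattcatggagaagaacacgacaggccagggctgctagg

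The motifs searched on both strands were GAAANNGAAA for the ISRE and TTCNNNGAA for the GAS. In Ifitm3 the GAS match overlaps the second ISRE match. Of the 37 members with a promoter in the table (Usp18, Mx1, Mx2 and Tap2 were not matched), 16 held an ISRE and 11 a GAS. Over all 27025 genes of the table, 3.99% held the ISRE and 9.55% the GAS in at least 1 promoter, or 3.44% and 8.3% of its 32851 promoters. The ISRE was found in Ifih1, Ddx58, Eif2ak2, Stat2, Ifit1, Ifit3, Isg15, Rsad2, Gbp2, Gbp3, Bst2, Ifitm2, Ifitm3, Psme1, B2m and H2-T23. Ifit2, whose promoters are not printed although it too was called higher in each TF group, held no ISRE match. It held a GAS match 241 bases before a start. Isg15, whose protein is attached to others much as ubiquitin is, held 3 matches, at 78, 72 and 66 bases before the start. The peptide loading genes Tap1 and Tapbp and the MHC genes H2-K1 and H2-D1 held no exact match to either motif in this window. Only exact matches were counted, so a promoter counted as without a motif may hold a variant of it. The windows of H2-K1 and H2-D1 both hold tttcacttct, which comes close to the ISRE pattern and was not counted. The matches are a description of these windows.

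Against the negative control, more members rose than fell in each TF group. A gene was called at an adjusted p under 0.05 in limma and a fold change over 1.5. In TF group 3, 11 of the 37 were called higher and 2 lower, beside 14.7% and 9.84% of all genes. In TF group 2 the counts were 11 and 1, beside 15.3% and 10.1% of all genes, and in TF group 1 they were 13 and 1, beside 15.1% and 8.93%. The members' median change was 0.39 in TF group 3, 0.34 in TF group 2 and 0.56 in TF group 1, positive on the signals as deposited and negative under spike scaling (-0.41, -0.40 and -0.34). The 3 comparisons share the same 3 control arrays, so they are not separate evidence. Ifit1, Ifit2, Ifit3, Ifitm1, Tap1, Tap2 and Tapbp were called higher in all 3 TF groups, Gbp2 was called lower in all 3, and 19 members were called in none. Of the 13 counted members with an ISRE, 4 were called higher and 1 lower in TF group 3, 2 higher and 1 lower in TF group 2, and 4 higher and 1 lower in TF group 1. Of the 20 counted members whose promoter held no exact match, 5 were called higher and 1 lower in TF group 3. In TF group 2, 7 were higher and none lower, and in TF group 1, 8 were higher and none lower. Calls were made both for genes with and for genes without the motif.

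**Figure D1:**
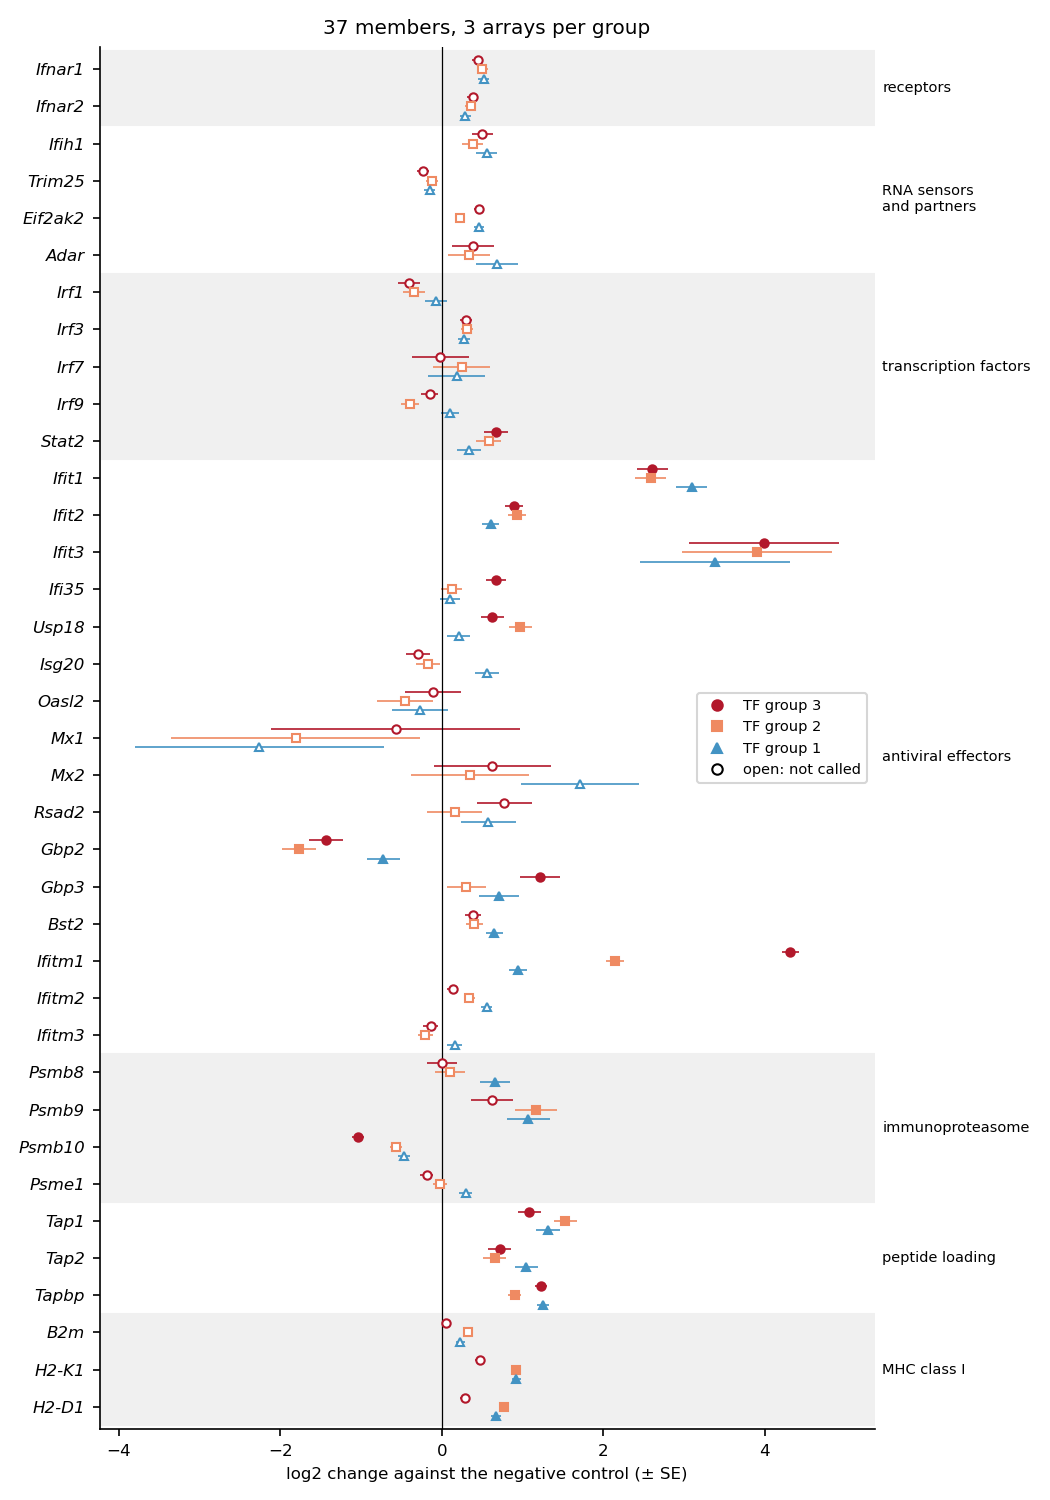
Log2 change of the 37 counted members against the negative control (horizontal axis, with the standard error of the limma fit), by role, for TF group 3 (circles), TF group 2 (squares) and TF group 1 (triangles), each from 3 arrays against 3 and on the signals as deposited. Filled symbols were called at an adjusted p under 0.05 and a fold over 1.5: Ifitm1 spreads from 0.95 in TF group 1 to 4.32 in TF group 3, Gbp2 lies left of 0 in all 3 TF groups, and scaling to the spikes would move the 3 kinds of symbol left by 0.793, 0.738 and 0.899.

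On their brightest probe sets the receptors were read above the control by less than the fold threshold. Ifnar1, the chain that carries the kinase Tyk2, had signals of 333.3, 320 and 327.4 in TF group 3, 369.3, 315.5 and 336.2 in TF group 2, 350, 355.2 and 326 in TF group 1, and 248.9, 239 and 232.6 in the negative control. All 9 TF arrays lay above the 3 control arrays. The change was 0.45 in TF group 3, 0.50 in TF group 2 and 0.52 in TF group 1 (SE 0.07 each), with an adjusted p of 0.000257 in TF group 1. Ifnar2, the chain that carries Jak1, changed by 0.38, 0.36 and 0.29 in TF groups 3, 2 and 1, and neither receptor was called. A dimmer Ifnar2 probe set ran the other way, also without a call. Its mean log2 signal was 6.811, 6.786 and 6.906 in TF groups 3, 2 and 1, against 6.986 in the negative control. On the brightest probe sets both genes lay below the control under spike scaling in all 3 TF groups (-0.35, -0.24 and -0.38 for Ifnar1).

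None of the 4 counted RNA sensors and partners was called. Ifih1 (MDA5), which detects long double-stranded RNA, read 215.2, 216.1 and 201.2 in TF group 3, 217.8, 175.2 and 190 in TF group 2, 194.9, 238 and 225.4 in TF group 1, and 124.2, 173.7 and 152.4 in the negative control. Each TF array was above each control array, with changes of 0.50, 0.38 and 0.56 and adjusted p of 0.0136, 0.0467 and 0.00815. Without replicate 2 of the negative control the change passed the fold threshold in TF group 3 (0.62) and TF group 1 (0.67), and leaving out replicate 1 of TF group 1 gave the same there (0.64). Eif2ak2 (PKR), a kinase that stops translation on binding double-stranded RNA, changed by 0.46 in TF group 3, 0.23 in TF group 2 and 0.46 in TF group 1, and Adar, which edits adenosine to inosine in double-stranded RNA, by 0.39, 0.34 and 0.68. Adar was called in TF group 1 (0.92) when replicate 3 of the negative control was left out. Trim25, a ubiquitin ligase that serves the sensor Ddx58 (RIG-I), changed by -0.23, -0.12 and -0.15 on its brightest probe set. A dimmer probe set of Trim25 read 68.91, 67.02 and 62.47 in TF group 3, 57.18, 52.83 and 53.34 in TF group 2, 49.21, 39.03 and 46.37 in TF group 1, and 125.2, 107.1 and 112.2 in the negative control. On that probe set the TF groups were called lower by -0.79, -1.07 and -1.36, and on the last of the 3 probe sets no change was called, so the probe sets of this gene do not give 1 answer.

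Of the transcription factors, 1 call was made. Stat2, the subunit that brings activation to the ISRE complex, read 77.32, 87.77 and 106.5 in TF group 3, 87.83, 69.64 and 97.42 in TF group 2, 68.99, 63.91 and 81.37 in TF group 1, and 56.14, 56.75 and 55.92 in the negative control. The control arrays were close together and below every TF array. The change was 0.67 ± 0.15 (SE) in TF group 3 (adjusted p 0.00589), against 0.58 in TF group 2 and 0.34 in TF group 1, which were not called. The call in TF group 3 was lost without its replicate 3 (0.55), with centring on array medians (0.56), and turned to -0.12 under spike scaling. In TF group 2, Stat2 was called without its replicate 2 (0.72) or without replicate 2 of the negative control (0.59). The other probe set of Stat2 gave 0.22 in TF group 3 and was not called. Irf9, the DNA-binding subunit of the same complex, read 196.7, 179.4 and 202.2 in TF group 3, 176.9, 150.2 and 162.2 in TF group 2, 233.3, 230.1 and 224.1 in TF group 1, and 247.4, 183.2 and 215.5 in the negative control. Its lowest group was TF group 2, with a change of -0.39 (adjusted p 0.0166) that stayed under the fold threshold. Irf1, an activator of class I and immunoproteasome genes, changed by -0.41, -0.35 and -0.07 in TF groups 3, 2 and 1. Irf3, which starts interferon transcription and is made without it, changed by 0.30, 0.31 and 0.27, and Irf7, the factor that amplifies interferon production, by -0.02, 0.25 and 0.19 with an SE of 0.35. A dimmer Irf3 probe set ran the other way (-0.49, -0.93 and -0.63) and was called lower in TF group 2. Irf7 had its lowest array at 64.31 in TF group 3 replicate 2, and its groups overlapped.

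Ifit1, Ifit2 and Ifit3 were called higher in all 3 TF groups. Ifit1, whose protein binds viral RNA with an unmethylated cap, read 563.2, 484.8 and 567.5 in TF group 3, 615, 478 and 505.6 in TF group 2, 702.1, 776 and 789.4 in TF group 1, and 89.39, 65.35 and 117.5 in the negative control. The lowest TF array was several times the highest control array. The change was 2.61 ± 0.19 (SE, adjusted p 4.7e-06) in TF group 3, 2.59 ± 0.19 in TF group 2 and 3.10 ± 0.19 in TF group 1, or 6.09-fold, 6.01-fold and 8.56-fold. It was called under every alternative run, spike scaling included (1.81, 1.85 and 2.20). TF groups 3 and 2 did not separate from each other (0.02, 95% interval -0.41 to 0.45), and both differed from TF group 1 by about -0.5 without passing the test.

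Ifit2, a related protein that shares the fold of repeated helices, read 413.3, 418.3 and 339.4 in TF group 3, 398.9, 415.3 and 384.3 in TF group 2, 313.7, 319 and 323 in TF group 1, and 240.9, 203.8 and 187.2 in the negative control. Again no TF array reached down to the controls. The change was 0.89 in TF group 3, 0.93 in TF group 2 and 0.60 in TF group 1 (SE 0.11 each). The call in TF group 1 was lost without replicate 2 (0.585) or replicate 3 (0.524) of the negative control, and under spike scaling the change there was -0.29, against 0.10 in TF group 3 and 0.19 in TF group 2. Ifit3, the partner that stabilises Ifit1 on RNA, read 106.7, 105.1 and 106 in TF group 3, 100.1, 115.4 and 85.44 in TF group 2, 79.95, 63.09 and 66.43 in TF group 1, and 1.802, 3.69 and 44.22 in the negative control. The 3 control arrays disagreed, with 1 above the floor, so the fold is a bound against a signal of 32. The bound for Ifit3 was at least 3.31-fold (TF group 3), at least 3.11-fold (TF group 2) and at least 2.17-fold (TF group 1), with adjusted p of 0.00691, 0.00752 and 0.0162. Without replicate 2 of the negative control it was not called in TF group 1 (adjusted p 0.0583), and with only the arrays of the 2 groups in the fit it was called in none of the 3 (0.0592, 0.0618 and 0.0937).

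Ifitm1 separated all 4 groups. Its protein sits in membranes and hinders the entry of enveloped viruses. Signals were 2133, 2385 and 2310 in TF group 3, 499.6, 509 and 500.4 in TF group 2, 218, 232.7 and 209.2 in TF group 1, and 101.9, 138.5 and 105 in the negative control. No 2 groups overlapped. The change against the negative control was 4.32 ± 0.11 (SE, adjusted p 1.52e-08) in TF group 3, 2.14 ± 0.11 in TF group 2 and 0.95 ± 0.11 in TF group 1, or 19.9-fold, 4.41-fold and 1.93-fold. TF group 3 was higher than TF group 2 by 2.18 (4.52-fold, adjusted p 8.69e-06), and TF group 2 exceeded TF group 1 by 1.20 (2.29-fold, adjusted p 0.00029), so the signal was higher with each set of added factors. Spike scaling left 0.05 in TF group 1, which was then not called, and 3.53 and 1.40 in TF groups 3 and 2.

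The neighbours of Ifitm1 did not share this order. Ifitm2 read 4227, 4530 and 4506 in TF group 3, 5098, 4960 and 5248 in TF group 2, 6359, 5552 and 5880 in TF group 1, and 3961, 4297 and 3840 in the negative control. The highest group was TF group 1, with a change of 0.56, against 0.34 in TF group 2 and 0.13 in TF group 3, none of them past the fold threshold. Without replicate 2 of TF group 1 or replicate 2 of the negative control the change in TF group 1 was 0.60 and called. Ifitm3, the best known of the family as a barrier to influenza virus, read between 7018 and 7361 in TF group 3, 5983 and 7714 in TF group 2, 8361 and 9638 in TF group 1, and 7635 and 8186 in the negative control, with changes of -0.14, -0.20 and 0.16. The 2 proteins are very similar in sequence, so their probes may read each other's transcripts. Of these 3 genes, Ifitm2 and Ifitm3 held the ISRE in the window searched and Ifitm1 did not.

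Among the guanylate-binding proteins, GTPases that coat intracellular pathogens, Gbp2 and Gbp3 moved in opposite directions. Gbp2 read 70.83, 58.5 and 105.3 in TF group 3, 74.64, 57.29 and 51.09 in TF group 2, 118.4, 131.4 and 124 in TF group 1, and 208.7, 186.1 and 223.2 in the negative control. Each TF array lay below the lowest control array. Gbp2 fell by 1.44 ± 0.21 (SE) in TF group 3, 1.77 ± 0.21 in TF group 2 and 0.72 ± 0.21 in TF group 1, with adjusted p of 0.000413, 0.000101 and 0.0207. Both of its probe sets were called lower in all 3 TF groups. On the chosen one, the call in TF group 1 did not survive leaving out replicate 1 (adjusted p 0.0532) or 3 (0.0659) of the negative control or replicate 1 (0.0617) or 3 (0.0533) of its own group. Gbp3 read 92.3, 58.93 and 60.26 in TF group 3, 38.76, 39.39 and 32.11 in TF group 2, 52.98, 45.68 and 46.95 in TF group 1, and 42.87, 22.33 and 27.19 in the negative control. TF groups 3 and 1 lay above all control arrays, at least 2.15-fold and at least 1.51-fold higher with the control at the floor (adjusted p 0.00313 and 0.0455), and TF group 2 overlapped them. In TF group 1 the Gbp3 call was lost without replicate 2 or 3 of the negative control and without any 1 of its own 3 arrays (adjusted p 0.0781 to 0.15), and the change there turned to -0.19 under spike scaling.

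**Figure D2:**
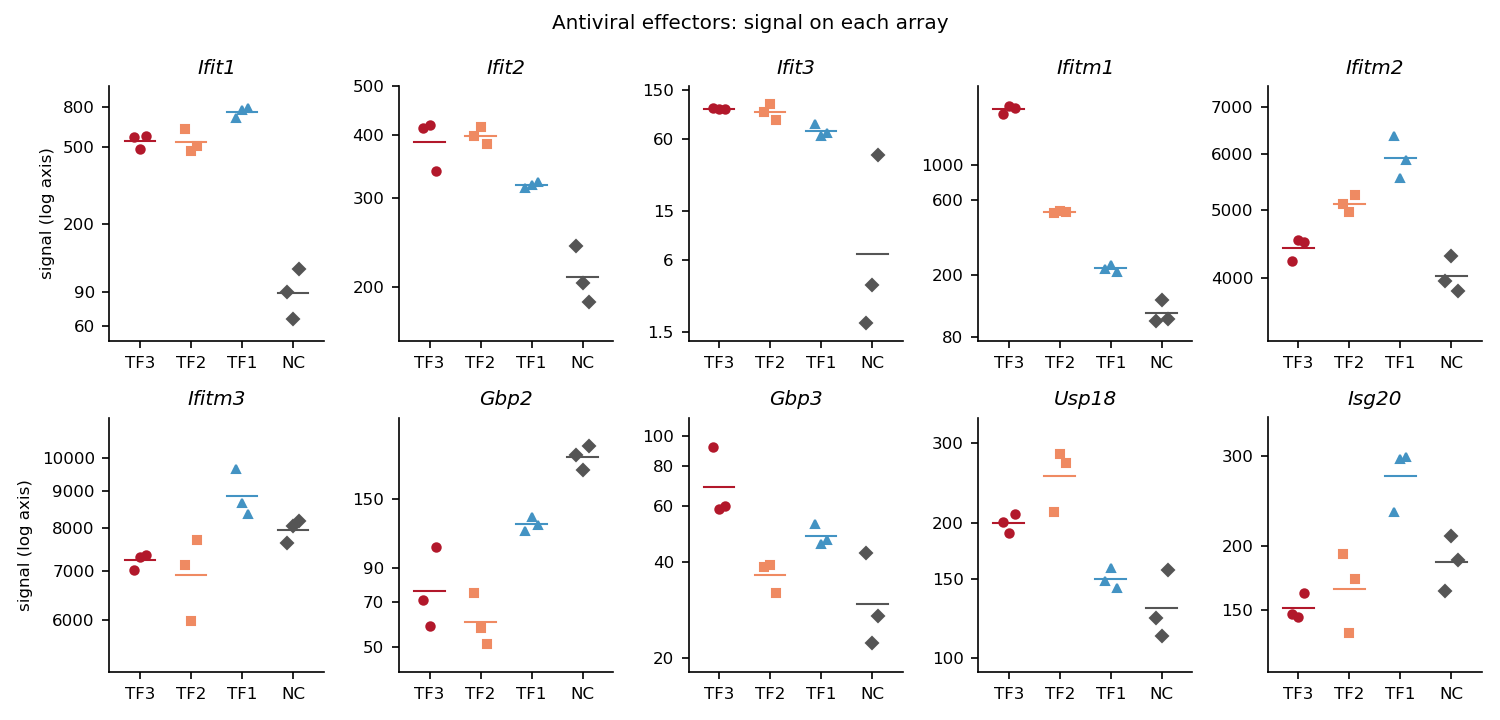
Signal of 10 antiviral effectors on each array (vertical log axis, 1 panel and scale per gene) in TF group 3, TF group 2, TF group 1 and the negative control (TF3, TF2, TF1, NC), as deposited, with bars at the mean of the log2 signals. Ifit1 lies at 478 or more on all TF arrays, against 117.5 or less in the negative control, Ifitm1 has 4 separate levels, and Gbp2 is highest in the negative control.

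Usp18 and Isg20 differed between TF groups. Usp18, the protease that removes Isg15 and dampens interferon receptor signalling, read 200.1, 189.2 and 209.2 in TF group 3, 211.5, 284.1 and 270.7 in TF group 2, 148.1, 158.3 and 142.9 in TF group 1, and 122.9, 112 and 156.9 in the negative control. It was higher than the control by 0.97 in TF group 2 (adjusted p 0.000405) and 0.62 in TF group 3 (0.00599), while the 0.21 in TF group 1 was not called. Without replicate 2 of the negative control the call in TF group 3 was lost (0.52), and spike scaling turned it to -0.17. TF group 2 was above TF group 1 by 0.76 (adjusted p 0.0121), a call lost without replicate 2 of TF group 2 (adjusted p 0.0511). Isg20, an exonuclease that degrades viral RNA, read 147, 145.6 and 161.7 in TF group 3, 192.6, 135.5 and 172.3 in TF group 2, 232.9, 296 and 297.6 in TF group 1, and 163.6, 209.4 and 187.3 in the negative control. TF group 1 was the highest group, by 0.56 over the control, which was called without replicate 1 of TF group 1 (0.68) or replicate 2 of the negative control (0.65) but not with all arrays. TF group 3 was below TF group 1 by -0.86 (adjusted p 0.00544), and TF group 2 below TF group 1 by -0.73 (adjusted p 0.0206). Without replicate 2 or 3 of TF group 1, or replicate 2 or 3 of TF group 2, the difference from TF group 2 was not called (adjusted p 0.0536 to 0.0778).

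Among the other effectors, Bst2 (tetherin), which holds budding virus on the cell surface, read 667.8, 692.2 and 633.5 in TF group 3, 666.8, 693.4 and 655.6 in TF group 2, 809.1, 772.6 and 813.7 in TF group 1, and 487.5, 443.5 and 607.8 in the negative control. Every TF array lay above the controls, and the change of 0.65 in TF group 1 was called (adjusted p 0.000759), beside 0.39 in TF group 3 and 0.40 in TF group 2. Without replicate 2 of the negative control it was 0.55 and not called, and it turned to -0.25 under spike scaling. Ifi35, a leucine-zipper protein of the response, read 460.1, 394.6 and 360.5 in TF group 3, 260.4, 279.4 and 288.2 in TF group 2, 245.5, 273.7 and 298.1 in TF group 1, and 216.5, 258.3 and 290.1 in the negative control. The arrays of TF group 3 stood above the control while the other TF groups overlapped it, by 0.67 (adjusted p 0.00233), a call lost without its replicate 1 (0.575) or replicate 1 of the negative control (0.558) and turned to -0.12 under spike scaling. TF group 3 differed from TF group 2 by 0.55 and from TF group 1 by 0.57 (adjusted p 0.0314 and 0.0182, under the fold threshold), and these passed it without replicate 3 of TF group 3 (0.63 and 0.65) and, for TF group 1, without replicate 3 of TF group 1 (0.64).

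Several effectors that are strongly induced by interferon in other settings were dim here. Oasl2, a relative of the oligoadenylate synthetases, read 25.2 to 48.49 in TF group 3, 16.38 to 36.08 in TF group 2, 24.67 to 37.24 in TF group 1 and 30.2 to 48.29 in the negative control. Rsad2 (viperin), which makes a chain-ending nucleotide, read 53.67 to 65.11, 24.74 to 63.26, 40.12 to 63.74 and 24.97 to 45.85 in TF group 3, TF group 2, TF group 1 and the negative control. Its dimmer probe sets ran otherwise. In the same order of groups, mean log2 signals were 4.722, 6.039, 5.091 and 5.566 on 1 and 4.695, 4.676, 4.36 and 4.966 on another. None of its 3 probe sets was called against the control. Mx2, a dynamin-like GTPase, read 16.56 to 51.08, 12.71 to 29.88, 42.2 to 66.4 and 8.364 to 56.78, and was not called, with control arrays below and above the floor. Mx1, of the same family and defective in most laboratory strains, was below the floor in each group. The probe set annotated to Isg15 and Gm9706 read 428.3, 429.2 and 409.2 in TF group 3, 505, 533.1 and 527.9 in TF group 2, 457.5, 447.5 and 428.5 in TF group 1, and 280.5, 331.2 and 492.6 in the negative control, where 1 array overlapped the TF groups, and was not called (0.24, 0.55 and 0.31).

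All 3 peptide loading genes were called higher in all 3 TF groups. Tap1 and Tap2 encode the chains of the transporter that carries peptides into the endoplasmic reticulum. Tap1 read 228.2, 184.7 and 202.3 in TF group 3, 261.8, 273.1 and 300.4 in TF group 2, 230.5, 227 and 264.1 in TF group 1, and 106.5, 110.1 and 76.34 in the negative control. The change was 1.08, 1.53 and 1.32 in TF groups 3, 2 and 1 (SE 0.15 each, adjusted p 0.000247, 2.41e-05 and 7.34e-05), and 0.29, 0.79 and 0.42 under spike scaling, where only TF group 2 was called. Of the 4 Tap1 probe sets, the chosen and brightest one was called in each TF group and a further one in TF group 1. Tap2 read 252.8, 212.2 and 265.2 in TF group 3, 226.7, 244.4 and 225 in TF group 2, 303.2, 291.9 and 317.1 in TF group 1, and 176.4, 117.1 and 155.6 in the negative control. The change was 0.72, 0.65 and 1.04, lost in TF groups 3 (0.549) and 2 (0.485) without replicate 2 of the negative control and turned to -0.08 and -0.09 there under spike scaling.

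Tapbp (tapasin), which bridges the transporter and the empty class I molecule, read 1084, 1225 and 1157 in TF group 3, 866.9, 942.8 and 938.6 in TF group 2, 1204, 1181 and 1132 in TF group 1, and 510.9, 514.3 and 449.7 in the negative control. The lowest TF array was well above the highest control array. The change was 1.23 ± 0.08 (SE, adjusted p 1.45e-06) in TF group 3, 0.90 ± 0.08 in TF group 2 and 1.26 ± 0.08 in TF group 1. Spike scaling left 0.44, 0.16 and 0.36 in TF groups 3, 2 and 1, none of them called. TF group 2 lay below TF group 1 by -0.36 (adjusted p 0.022), and TF group 3 above TF group 2 by 0.33 (adjusted p 0.026), both under the fold threshold.

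The heavy chains H2-K1 and H2-D1 rose in TF groups 2 and 1 and stayed under the fold threshold in TF group 3, and the light chain B2m was not called. H2-K1, a classical heavy chain, read 3662, 3525 and 3500 in TF group 3, 4591, 4934 and 5073 in TF group 2, 4938, 4759 and 4892 in TF group 1, and 2459, 2676 and 2569 in the negative control. On this probe set, TF group 3 fell between the other TF groups and the control with no overlap. The change was 0.47 in TF group 3 (1.39-fold), against 0.92 in both TF group 2 and TF group 1 (SE 0.06 each, adjusted p 1.74e-06 in TF group 2). H2-D1, the other classical heavy chain of this strain, read 5080, 4596 and 5098 in TF group 3, 6525, 6999 and 7168 in TF group 2, 6464, 6222 and 6618 in TF group 1, and 3884, 4088 and 4141 in the negative control. The changes were 0.29, 0.77 and 0.67, again smallest in TF group 3. Under spike scaling neither heavy chain was called higher, with -0.32, 0.18 and 0.02 for H2-K1 and -0.51, 0.03 and -0.23 for H2-D1. B2m, the light chain that all class I molecules need, read 6747, 7157 and 6541 in TF group 3, 8150, 8129 and 8232 in TF group 2, 7604, 7773 and 7677 in TF group 1, and 6453, 6726 and 6484 in the negative control, with changes of 0.06, 0.32 and 0.23 that were not called.

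The difference between TF group 3 and TF group 2 was tested directly. TF group 3 was lower by -0.45 for H2-K1, -0.49 for H2-D1 and -0.26 for B2m, with adjusted p of 0.00178, 0.00197 and 0.0138, each under the fold threshold. Heavy chain genes are near-identical over long stretches, and probe sets with the suffix used for shared sequence may read more than 1 of them. The second bright H2-K1 probe set read 2486, 2427 and 2578 in TF group 3, 3524, 3490 and 3662 in TF group 2, 4104, 3823 and 4181 in TF group 1, and 2731, 2790 and 2914 in the negative control. On it TF group 3 lay below the control without overlap (-0.17), against 0.34 in TF group 2 and 0.52 in TF group 1, none of them past the fold threshold, so the 2 probe sets give opposite signs for TF group 3. Of the 9 probe sets of H2-D1, 2 were called higher in TF group 3, 6 in TF group 2 and 6 in TF group 1, and of the 4 of H2-K1 the counts were 0, 1 and 2. A dimmer H2-D1 probe set read 233.6, 216.3 and 165.8 in TF group 3, 288.8, 513.7 and 327.5 in TF group 2, 119.7, 128.8 and 163.7 in TF group 1, and 10.52, 30.9 and 18.49 in the negative control, at least 6.35-fold, 11.4-fold and 4.25-fold higher. Its order of groups was that of H2-Q10, a non-classical class I gene, which read 697.2, 719.8 and 771.9 in TF group 3, 1620, 1612 and 1631 in TF group 2, 320.3, 387.7 and 366.2 in TF group 1, and 50.34, 68.59 and 31.79 in the negative control (changes of 3.93, 5.08 and 2.90). Whether that probe set read H2-Q10 was not tested. Of 11 other class I genes measured, 3 were called higher in TF group 3, 2 in TF group 2 and 3 in TF group 1, and 1 (Erap1) lower in TF group 2, with list medians of 0.16, 0.20 and 0.26. The share of all genes called higher was 14.7%, 15.3% and 15.1% in the same comparisons. The probe set annotated to both H2-K1 and H2-D1 changed by -0.34 in TF group 3, 0.57 in TF group 2 and 0.60 in TF group 1. The brighter of those annotated to H2-T23 and H2-T-ps, genes of the non-classical group, read 174.2, 165.5 and 196.5 in TF group 3, 130.6, 134.7 and 153.7 in TF group 2, 210.2, 203.2 and 199.3 in TF group 1, and 85.9, 89.83 and 105.5 in the negative control, a rise of 0.93 and 1.13 called in TF groups 3 and 1 and of 0.58 in TF group 2 that was not called.

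**Figure D3:**
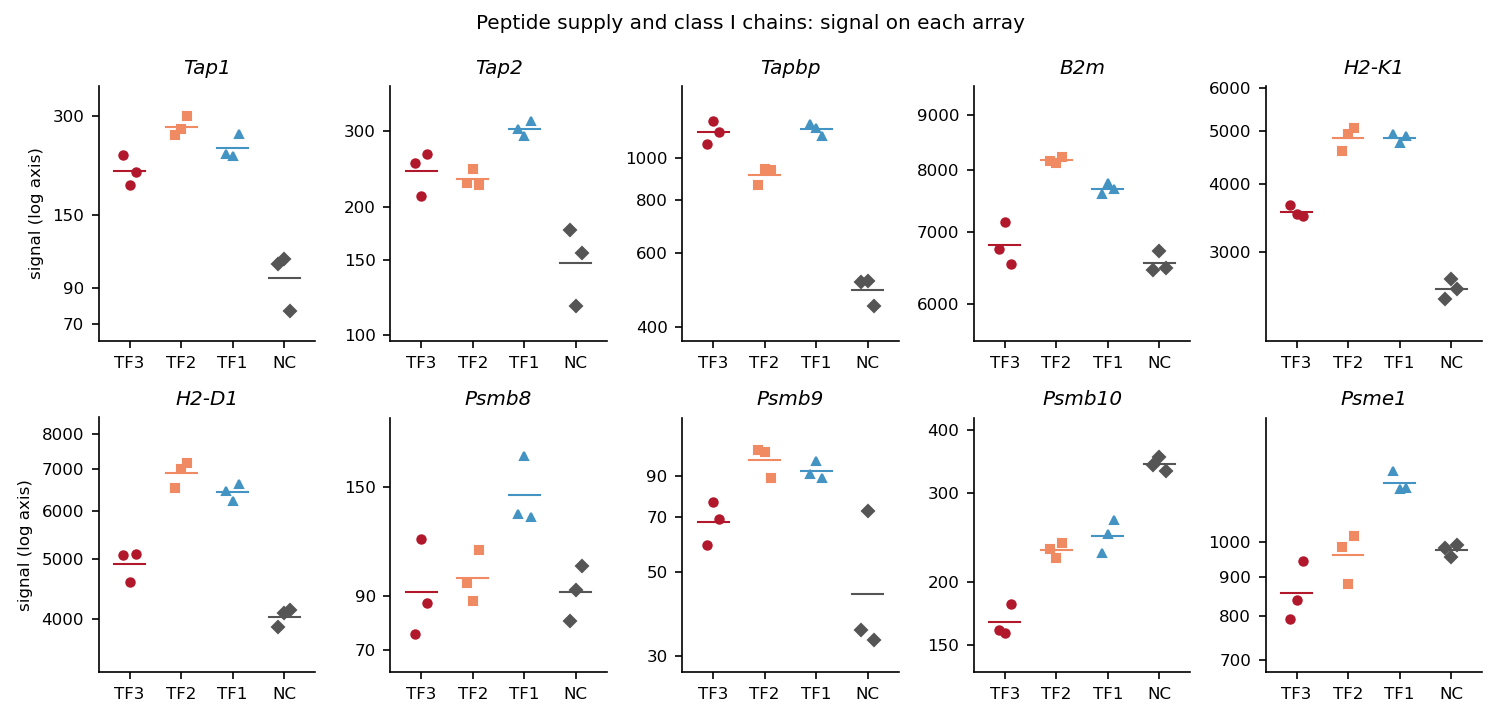
Signal of 10 antigen presentation genes on each array (vertical log axis, 1 panel and scale per gene) in TF group 3, TF group 2, TF group 1 and the negative control (TF3, TF2, TF1, NC), as deposited, with bars at the mean of the log2 signals. Tap1, Tap2 and Tapbp are lowest in the negative control, H2-K1 and H2-D1 in TF group 3 lie between the other TF groups and the control, and Psmb10 is highest in the negative control. Scaling to the spikes would put Tap2 below the control in TF groups 3 and 2, H2-D1 in TF groups 3 and 1, and H2-K1, B2m and Psmb9 in TF group 3, among others.

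The immunoproteasome subunits did not move together. Interferon gamma replaces the catalytic subunits of the proteasome by Psmb8, Psmb9 and Psmb10. Psmb9 read 58.96, 76.5 and 69.03 in TF group 3, 105.2, 103.9 and 88.58 in TF group 2, 90.66, 98.3 and 88.81 in TF group 1, and 35.17, 72.8 and 33.17 in the negative control. It was higher in TF group 2 by 1.17 and in TF group 1 by 1.07 (adjusted p 0.00533 and 0.00887), and by 0.62 in TF group 3, which overlapped the control and was not called. Without replicate 2 of the negative control, the highest of the 3, TF group 3 was called as well (0.99). Under spike scaling neither call held (0.43 in TF group 2 and 0.17 in TF group 1). Psmb8 read 75.58, 117.9 and 87.38 in TF group 3, 95.92, 88.22 and 111.9 in TF group 2, 132.6, 173.4 and 130.6 in TF group 1, and 80.27, 92.7 and 103.9 in the negative control. TF group 1 was higher than the control by 0.65 (adjusted p 0.0191), and TF group 3 was lower than TF group 1 by -0.65 (adjusted p 0.049). The call against the control was lost without replicate 1 of the negative control (adjusted p 0.0667) or replicate 2 of TF group 1 (0.0696) and turned to -0.25 under spike scaling, and the difference between TF groups was lost without any 1 of the 3 arrays of TF group 1 or replicate 1 or 3 of TF group 3 (0.0747 to 0.153).

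Psmb10 moved the other way. It read 160.2, 158.2 and 180.9 in TF group 3, 232.4, 222.9 and 238.2 in TF group 2, 227.8, 248.3 and 264.6 in TF group 1, and 340.6, 353.7 and 331.5 in the negative control. All TF arrays lay below the controls, and TF group 3 lay below the other TF groups. Psmb10 fell by 1.04 ± 0.08 (SE, adjusted p 4.68e-06) in TF group 3, against 0.56 in TF group 2 and 0.47 in TF group 1, which passed the test but not the fold threshold. In TF group 2 it was called without its replicate 3 or replicate 3 of the negative control (-0.59 for each). TF group 3 was below TF group 2 by -0.48 and below TF group 1 by -0.57 (adjusted p 0.00502 and 0.00123). The difference from TF group 1 was called without replicate 1 of TF group 1 or replicate 3 of TF group 3 (-0.63 for each). Psme1, a subunit of the cap that opens the proteasome, changed by -0.19, -0.02 and 0.30 in TF groups 3, 2 and 1, and the probe set of Psme2 and Psme2b by 0.06, 0.23 and 0.32, neither called. Of 16 genes of the constitutive proteasome, none was called higher, and 1, Psme3, was called lower in TF groups 2 and 1. In TF groups 3, 2 and 1, 14.7%, 15.3% and 15.1% of all genes were called higher and 9.84%, 10.1% and 8.93% lower.

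Between TF groups few members differed. TF group 2 against TF group 1 gave 2 higher (Usp18 and Ifitm1) and 2 lower (Isg20 and Gbp2), beside 2.08% and 1.78% of all genes. TF group 3 against TF group 2 gave 1 higher (Ifitm1) and 0 lower, beside 2.32% and 1.70%. TF group 3 against TF group 1 gave 1 higher (Ifitm1) and 2 lower (Isg20 and Psmb8), beside 3.26% and 3.05%. For Gbp2, TF group 2 lay below TF group 1 by -1.05 (adjusted p 0.017), a difference not called without replicate 2 or 3 of either group (0.0543 to 0.065). In TF group 3 its signal was below that in TF group 1 by -0.72 (adjusted p 0.0534), called without replicate 3 of TF group 3 (-0.95).

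Other genes of the pathway were read from lists taken as a whole. All 7 interferon genes measured were dim, and the 1 call among them (Ifna11, lower in TF group 1) lay under the floor in both groups. Ifnb1 read 22.64 to 33.76 in TF group 3, 29.34 to 52.51 in TF group 2, 17.43 to 32.28 in TF group 1 and 15.5 to 39.08 in the negative control. Of 34 other interferon-induced genes, 13 were called higher and 3 lower in TF group 3, 12 higher and 3 lower in TF group 2, and 13 higher and 2 lower in TF group 1. The shares of all genes called higher and lower were 14.7% and 9.84%, 15.3% and 10.1%, and 15.1% and 8.93%. Beside the same shares, of 10 receptor signalling genes only Ifngr2 was called higher (TF group 2) and only Ptpn2 lower (TF groups 3 and 2). None of 4 other interferon regulatory factors was called, with median changes of -0.208, -0.145 and -0.35 in TF groups 3, 2 and 1. The median change of the 34 genes was 0.59, 0.56 and 0.65, beside 0.05, 0.06 and 0.07 over all genes. Immunity-related GTPases, which attack the vacuoles of intracellular parasites, were among the genes called in every TF group. Ifi47 read 360.4, 303.4 and 311 in TF group 3, 373.3, 271.5 and 395.1 in TF group 2, 321.4, 334.1 and 337.8 in TF group 1, and 138.1, 81.11 and 92.62 in the negative control (changes of 1.68, 1.76 and 1.71). Irgm2 changed by 0.91, 1.94 and 2.11, and TF group 3 lay below TF group 2 (-1.03, adjusted p 0.02) and below TF group 1 (-1.20, adjusted p 0.00628). Samhd1, which depletes nucleotides that viruses need, was called lower in every TF group (-1.01, -1.21 and -1.10), as was Ifi27l2a (-1.15, -2.10 and -1.48). Cxcl10, a chemokine often used to read interferon activity, stayed between 17.14 and 40.05 on all arrays.

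The MHC class II genes, normally a property of professional antigen presenting cells, held called members too. H2-Ab1 read 235.8, 221.4 and 232.6 in TF group 3, 305.8, 346.1 and 252.6 in TF group 2, 307.7, 184.4 and 224.9 in TF group 1, and 41.78, 27.61 and 36.38 in the negative control (changes of 2.73, 3.10 and 2.75). Cd74, the invariant chain, read 112.8, 132.6 and 118.4 in TF group 3, 87.36, 48.58 and 36.69 in TF group 2, 49.94, 60.07 and 44.13 in TF group 1, and 45.37, 45.95 and 55.4 in the negative control. TF group 3 exceeded TF group 2 by 1.17 (adjusted p 0.0298) and TF group 1 by 1.25 (adjusted p 0.0152). Of 6 class II genes measured, 4 were called higher in TF group 3, 2 in TF group 2 and 2 in TF group 1. The share of all genes called higher was 14.7%, 15.3% and 15.1% in these comparisons. The summed macrophage markers given above were lower in TF group 1 than in the other TF groups without overlap, while the negative control overlapped all 3 TF groups. Of these markers, Cd68 read 135.1, 113.4 and 121.2 in TF group 3, 55.32, 107.6 and 92.92 in TF group 2, 72.6, 35.99 and 49.55 in TF group 1, and 80.64, 82.2 and 80.24 in the negative control, and TF group 3 exceeded TF group 1 by 1.28 (adjusted p 0.0153). Csf1r, the receptor for a macrophage growth factor, was higher in TF group 2 by 0.71 over TF group 1 (adjusted p 0.0108). Against the negative control other markers of this list were called. Lyz2 was lower in TF groups 3 and 2, and in TF group 1 Tyrobp was lower and Laptm5 higher. The 3 dendritic cell markers measured summed to 116.2 to 146 in TF group 3, 91.56 to 157.7 in TF group 2, 102.8 to 131.8 in TF group 1 and 115.1 to 132.9 in the negative control. The part of other cells in the class II signal was not tested beyond these values.

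**Figure D4:**
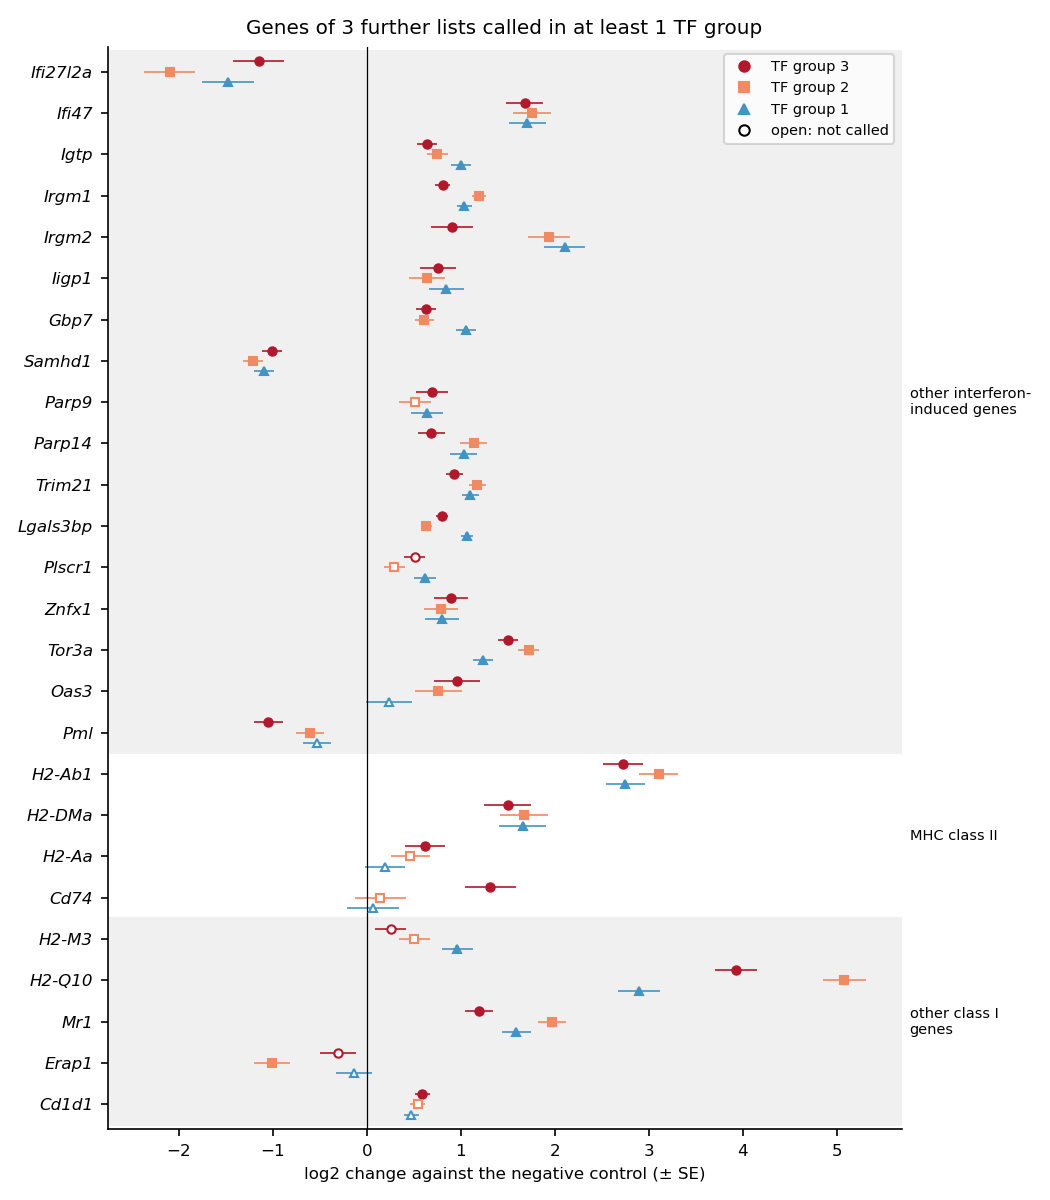
Log2 change against the negative control (horizontal axis, with the standard error of the limma fit) of the genes of 3 further lists called in at least 1 TF group, for TF group 3 (circles), TF group 2 (squares) and TF group 1 (triangles), 3 arrays per group, signals as deposited. Filled symbols were called: Ifi47 lies near 1.7 in all 3 TF groups, H2-Q10 reaches 5.08 in TF group 2, Cd74 stands apart in TF group 3, and Samhd1 and Ifi27l2a lie left of 0, while scaling to the spikes would move the symbols left by 0.793, 0.738 and 0.899.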

How the data were processed

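MEF RNA was hybridized to 12 Affymetrix 430A 2.0 arrays, 3 per group. The deposited values are 1 linear intensity per probe set. RMA and Partek appear in the submitters' processing notes with no version, but RMA gives log2 values, so what the authors did to obtain this intensity is not known, and an intensity under 32 carries little order. The intensities were taken to log2 without further scaling in R 4.3.3. limma 3.58.1 fitted 1 mean per group on 22626 probe sets (64 controls left out), with moderated variances and Benjamini-Hochberg adjustment over all of them, and a call needed an adjusted p under 0.05 and a fold over 1.5. Folds against a group mean below a signal of 32 are bounds against 32. Of the probe sets, 20380 had 1 symbol, 691 several and 1555 none. Steps were tested on simulated data. p-values measure the spread between these arrays.

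Members, gene lists and tests were chosen with earlier results of these data known. Every member was named, array values were given for those called and for some that were not, and of each further list up to 4 called genes per direction could be named. Alternatives covered the model, scaling, thresholds, the choice of probe set, a replicate block and each array left out. Promoters came from a RefSeq table of build GRCm38.p6.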

Additional observations from a re-analysis of the deposited data

Results flagged for a closer look

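A total of 5 members differed between TF groups by a direct limma test with Benjamini-Hochberg adjustment. In log2 units, Ifitm1 was 3.371 higher in TF group 3 than TF group 1 (adjusted p 3.74e-07), 2.176 higher in TF group 3 than TF group 2 (8.69e-06) and 1.195 higher in TF group 2 than TF group 1 (0.00029), with no overlap of arrays. Usp18 was 0.76 higher in TF group 2 than TF group 1. Isg20 differed by -0.856 between TF group 3 and TF group 1 and by -0.73 between TF group 2 and TF group 1. Gbp2 differed by -1.047 between TF group 2 and TF group 1, and Psmb8 by -0.649 between TF group 3 and TF group 1.

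Signals outside the counted members differed from the control arrays. The probe set annotated to H2-T23 and H2-T-ps was higher by 0.933 in TF group 3 and 1.129 in TF group 1. On the 9 TF arrays the 24 poly-A spike probe sets averaged 8.156 in log2 signal, against 7.346 on the 3 control arrays, a difference of 0.81. The 3 probe sets of 18S rRNA averaged 12.319 on TF arrays and 11.133 on control arrays, a difference of 1.186. The part of these control signals in the members' changes was not tested beyond the scaling given with the results.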

How the results depend on the processing

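Of 47 calls on members over the 6 comparisons, 46 held with the replicate block, 46 with an intensity trend, 46 with array weights, 47 in the unmoderated model, 47 with dim probe sets left out, 47 without the fold threshold, 42 with the mean of a gene's probe sets, 40 with quantile normalization, 40 with an offset of 32, 39 with only the 2 groups compared and 37 with arrays centred on their medians. The replicate block ended the call for Psmb8 in TF group 3 against TF group 1 (adjusted p 0.0524). Same-numbered arrays of different groups did not deviate together (correlations of -0.023 to 0.051, against -0.043 to 0.035 for other pairs). No pairing by number was seen in these values, and whether such arrays shared a preparation was not tested. Leaving out 1 array kept 247 of 282. Scaling to the spikes kept 16, ended 21 and turned 10. The turns follow from subtracting nearly the same amount from every gene. Between TF groups 2 and 1 this scaling ended 3 of 4 calls and moved the changes there by 0.161. That comparison shares its estimate of spread with all 12 arrays, the control arrays with their unlike spike means included. The cause of the losses, here and in the other settings, was not tested.

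Members called higher and lower under spike scaling were, against the negative control, 3 higher and 11 lower (TF group 3), 4 higher and 9 lower (TF group 2) and 2 higher and 13 lower (TF group 1), beside 3.53% higher and 48.4% lower, 4.14% and 44.4%, and 2.74% and 55.3% of all genes. Without the fold threshold they were 19 and 4, 20 and 3, and 22 and 2. The share of all genes was not counted at that setting, here or between TF groups, so these counts cannot be judged against it. Centring gave 8 higher and 2 lower in TF group 1 and 2 lower in TF group 2, as did quantile normalization (2) there. Between TF groups 2 and 1, spike scaling gave 1 higher and 0 lower, the 2 groups alone 1 and 1, and no fold threshold 5 lower. Between TF groups 3 and 2, 2 were higher with array weights, in the unmoderated model, with the replicate block, with centring, with quantile normalization, without dim probe sets and with the mean of probe sets, and 3 higher and 4 lower without the fold threshold. Between TF groups 3 and 1, 2 were higher with only 2 groups, with centring and without the fold threshold, and lower counts were 1 with only 2 groups, the replicate block, centring or the offset, 0 with spike scaling and 7 without the fold threshold. With 1 array left out, higher and lower counts against the control ranged over 10 to 11 and 2 to 2 (TF group 3), 11 to 12 and 1 to 2 (TF group 2) and 12 to 14 and 0 to 1 (TF group 1). They ranged over 1 to 2 and 0 to 2 between TF groups 2 and 1, 1 to 2 and 0 to 0 between TF groups 3 and 2, and 1 to 2 and 1 to 3 between TF groups 3 and 1.

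Under spike scaling the members' median turned to -0.407 in TF group 3, -0.403 in TF group 2 and -0.343 in TF group 1, and to -0.035 between TF groups 3 and 2. A total of 19 members in TF group 3, 17 in TF group 2 and 22 in TF group 1 turned from above the control to below it. Those called on either scale were, in TF group 3, Stat2 -0.12, Ifi35 -0.122, Usp18 -0.168, Ifitm2 -0.659, Psmb8 -0.79, Tap2 -0.077 and B2m -0.737, and in TF group 2 Tap2 -0.086. In TF group 1 these were Ifnar2 -0.609, Irf3 -0.626, Irf9 -0.798, Ifit2 -0.294, Ifi35 -0.797, Usp18 -0.688, Gbp3 -0.19, Bst2 -0.248, Ifitm3 -0.742, Psmb8 -0.246, Psme1 -0.602, B2m -0.669 and H2-D1 -0.226. Signals under 32 limit Ifit3, Gbp3, Mx1, Mx2 and Oasl2, and 3 arrays per group limit all.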

Other observations

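Genes beside the members varied in the sensing and class I lists. Of 7 other sensing genes measured, 1 was called higher in TF group 3, 1 in TF group 2 and 2 in TF group 1. The share of all genes called higher was 14.7%, 15.3% and 15.1%. Sting1 was called lower in TF group 2, where 10.1% of all genes were. Tlr3, the endosomal receptor for double-stranded RNA, read 102.1, 133.1 and 130.4 in TF group 3, 126.5, 144.1 and 101.5 in TF group 2, 91.39, 113.5 and 73.18 in TF group 1, and 53.61, 47.05 and 56.65 in the negative control. All TF arrays lay above the control arrays, with changes of 1.21, 1.23 and 0.80, each called, of which the last is smaller than the spike shift of 0.899 in TF group 1 and turns under that scaling. Mr1, which presents vitamin metabolites to T cells, read 128.1, 110.8 and 107.9 in TF group 3, 218.5, 192.2 and 185.9 in TF group 2, 149, 160.6 and 147.6 in TF group 1, and 64.98, 47.24 and 42.02 in the negative control. It was called higher in all 3 TF groups (1.19, 1.97 and 1.59) on the signals as deposited.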
